A study of Mus musculus with 23 samples.

Results

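Annexin and S100 genes with the membrane protein gene Dysf were followed across the quadriceps of 23 mice. The members were 10 listed genes, matched by symbol to the gene IDs of the count matrix, out of 55573 IDs in all: Anxa1, Anxa2, Anxa4, Anxa5, Anxa6, S100a4, S100a6, S100a10, S100a11 and Dysf. Of these, 9 passed the filter on low counts and were tested, and S100a4 did not pass it.

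The mice were C57BL/6J animals aged 8 to 10 weeks, and each had a slow-release pellet under the skin for 14 days before a fast of 5 h and collection of the muscle. The vehicle pellet held 100 mg cholesterol, and the corticosterone pellet held 50 mg corticosterone, the main glucocorticoid of mice, and 50 mg cholesterol. Bulk mRNA was sequenced from 6 vehicle-treated males, 6 corticosterone-treated males, 6 vehicle-treated females and 5 corticosterone-treated females. Each sample was 1 mouse, named here by the letter of its sex and its number (F6 is female 6). The genes of fast muscle fibres defined the tissue, with all 8 fibre markers detected in every mouse and a summed level of 99480 to 265800 CPM, the counts of a gene scaled to a common library size.

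Annexins are cytosolic proteins that bind acidic phospholipids of membranes when calcium rises, and several of them gather where the surface membrane of a muscle fibre is torn. Small S100 proteins also bind calcium and pair with annexins: S100a10 joins Anxa2 in a tetramer that also binds plasminogen at the cell surface, and S100a11 binds Anxa1. Dysf encodes dysferlin, a ferlin of the fibre membrane that is needed for resealing and whose loss causes muscular dystrophy. Anxa1 is also known as a glucocorticoid-regulated mediator that limits inflammation.

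The libraries held 20904150 to 21984477 counts on genes. Low-quality alignments, which are not part of the gene counts, were more frequent in 3 corticosterone-treated females, with 3496 read pairs in F2, 4618 in F6 and 4015 in F10 against 1219 to 1856 in the other 20 mice. Those 3 females also had the highest summed level of 6 adipocyte markers among treated females (2079 CPM in F2, 4147 CPM in F6 and 1808 CPM in F10, against 550.8 CPM in F4 and 36.66 CPM in F8). Calls that rest on corticosterone-treated females are followed by their values in a fit without these 3 mice, which leaves 2 treated females.

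The genes lie on 5 chromosomes of the GRCm38 (mm10) assembly. The 4 S100 members are on chromosome 3, with S100a4 at chr3:90603771-90606045, S100a6 at chr3:90612882-90624181, S100a11 at chr3:93520488-93526287 and S100a10 at chr3:93555080-93564643, all on the plus strand, and Anxa5 is on the same chromosome at chr3:36448923-36475894 on the minus strand. Anxa1 is at chr19:20373428-20390944 (minus strand), Anxa2 at chr9:69453620-69491795 (plus strand), Anxa4 at chr6:86736840-86793584 (minus strand), Anxa6 at chr11:54979108-55033445 (minus strand) and Dysf at chr6:84008590-84211060 (plus strand). Genes on the opposite strand overlap exons of Anxa2, Anxa4 and Dysf, and reads were counted by strand.

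Promoter sequence is shown for 4 members that differ in the motifs of their windows: Anxa2 and S100a11, whose windows hold an AP-1 motif, S100a6, whose window holds an arm of the glucocorticoid element, and Anxa5, whose window holds none of the motifs searched. RefSeq promoters (GRCm38.p6) were found for 8 of the 10 members, 10 windows of 250 bases before a start in all, and the stretches printed end before the annotated gene so that they hold no exon. They run 5′ to 3′ on the strand of the gene, and capitals mark a motif.
Anxa2, chr9:69453433-69453619, plus strand: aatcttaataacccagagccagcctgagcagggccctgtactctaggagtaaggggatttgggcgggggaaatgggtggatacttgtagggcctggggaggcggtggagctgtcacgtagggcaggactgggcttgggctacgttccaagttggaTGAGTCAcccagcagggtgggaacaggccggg
S100a11, chr3:93520246-93520487, plus strand: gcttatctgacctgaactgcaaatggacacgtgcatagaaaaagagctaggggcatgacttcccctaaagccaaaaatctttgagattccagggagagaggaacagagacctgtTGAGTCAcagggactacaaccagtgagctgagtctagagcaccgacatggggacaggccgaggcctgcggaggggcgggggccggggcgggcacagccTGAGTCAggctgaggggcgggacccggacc
S100a6, chr3:90612644-90612881, plus strand: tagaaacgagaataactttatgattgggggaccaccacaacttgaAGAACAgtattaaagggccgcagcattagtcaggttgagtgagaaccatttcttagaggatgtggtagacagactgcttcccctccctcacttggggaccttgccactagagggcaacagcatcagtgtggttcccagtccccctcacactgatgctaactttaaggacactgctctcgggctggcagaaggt
Anxa5, chr3:36475895-36476137, minus strand: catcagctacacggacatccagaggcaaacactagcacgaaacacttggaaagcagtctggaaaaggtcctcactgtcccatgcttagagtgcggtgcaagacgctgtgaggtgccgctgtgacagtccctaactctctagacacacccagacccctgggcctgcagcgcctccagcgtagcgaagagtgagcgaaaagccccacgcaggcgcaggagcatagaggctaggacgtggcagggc

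Motifs were searched on both strands of the whole windows as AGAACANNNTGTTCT (the full glucocorticoid response element), AGAACA (1 arm of it, which therefore lies within the full element), TGANTCA (the AP-1 site) and TATAAA (the TATA box). The full element was in 0 of the 10 member windows and in 0.00913% of all 32851 RefSeq promoter windows. Single arms were in 3 member windows, those of S100a6 and of a second start of Anxa4 and of Dysf, and in 16.1% of all windows. AP-1 sites were in the windows of Anxa2 and S100a11 and in 6.75% of all windows, and TATA boxes were in those of Anxa1, Anxa2 and S100a4 and in 12.4% of all. These matches describe the letters of the windows only.

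Levels were compared between genes per length, as RPKM, the CPM divided by the length of the exons in kilobases. In vehicle-treated males, Anxa6 had the highest level at 83.0 ± 5.30 RPKM (mean ± SD, n = 6), followed by S100a11 (48.7 ± 12.3), S100a6 (35.5 ± 5.84), Anxa5 (30.8 ± 3.31), S100a10 (25.2 ± 5), Anxa2 (15.3 ± 3.68), Anxa1 (10.4 ± 3.73), Dysf (8.11 ± 1.13) and Anxa4 (3.83 ± 0.991). Neighbours in this order overlapped within 1 SD except at 3 steps, namely Anxa6 to S100a11, S100a10 to Anxa2 and Dysf to Anxa4. The order was the same in vehicle-treated females, from Anxa6 at 80.0 ± 7.32 RPKM to Anxa4 at 2.65 ± 0.523 RPKM (n = 6). In corticosterone-treated females, S100a11 had the highest mean at 128 RPKM, with an SD of 73.2 over 5 mice.

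**Figure D1:**
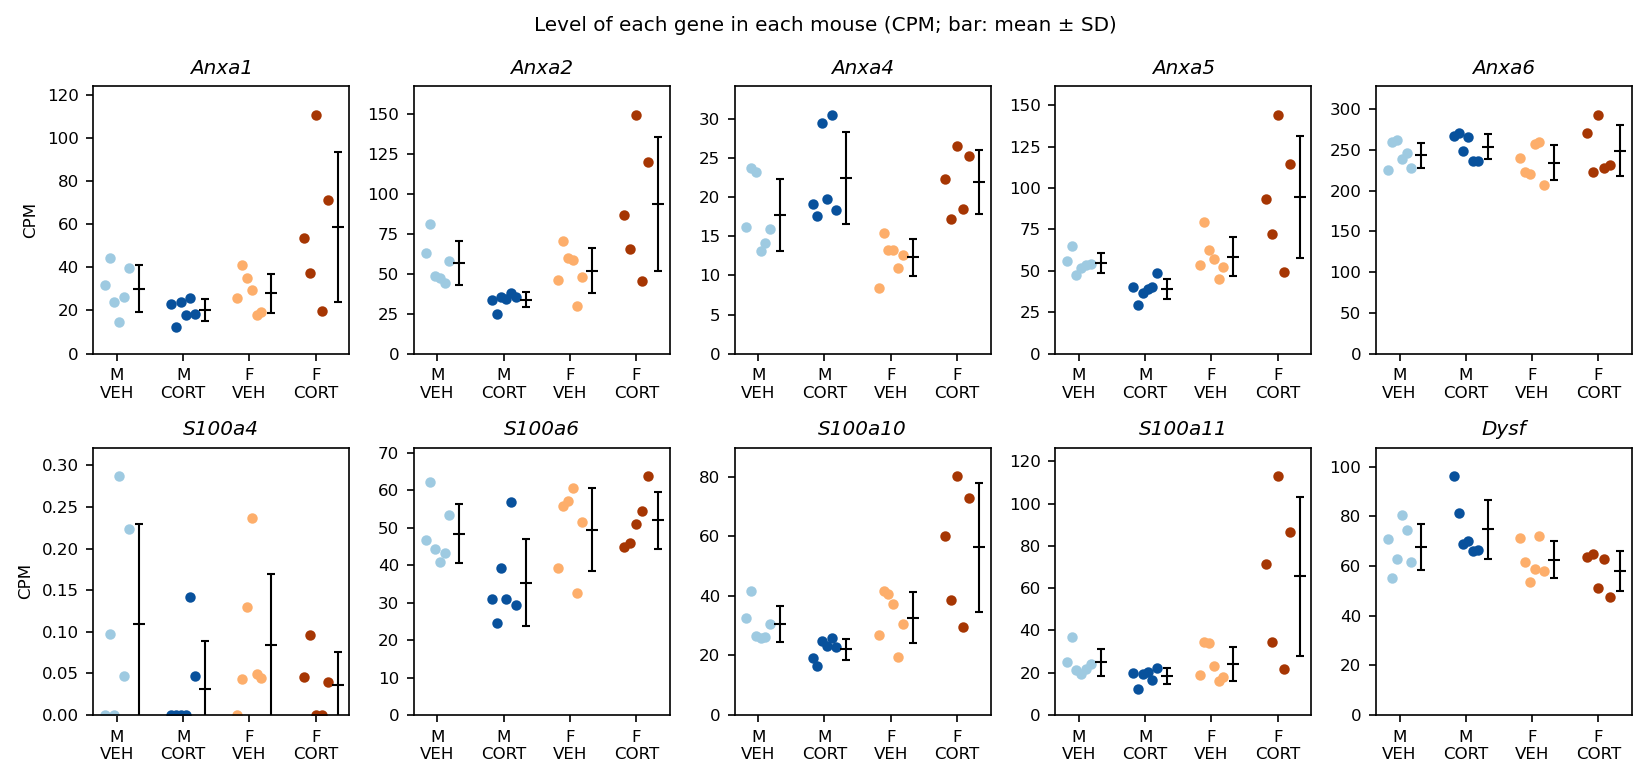
Level of each of the 10 genes in every mouse, in CPM on the vertical axis of each panel, with vehicle (VEH) and corticosterone (CORT) groups of males (M) and females (F) side by side; each point is 1 mouse and the bar is the mean ± SD. The treated females are spread widely for Anxa1, Anxa2, Anxa5, S100a10 and S100a11, as for Anxa1 from 19.88 to 111 CPM, and closely for Anxa6 and Dysf.

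The effect of corticosterone was examined in each sex, with edgeR's quasi-likelihood test and an adjusted p (Benjamini-Hochberg, over 13049 genes) under 0.01 as the threshold for a call. In females, S100a11 and Anxa4 rose. Anxa1, Anxa2, Anxa5 and S100a10 had higher means in treated females without passing the threshold, and S100a6, Anxa6 and Dysf had fold changes near 1. In males, 0 of the 9 tested members passed, and 6 of the 9 had lower means in treated mice. In bulk tissue, fewer cells of a type and less RNA per cell cannot be told apart.

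Among annexins of females, Anxa4, which binds membranes of the cell surface and of secretory vesicles, had 8.34, 12.9 and 15.5 CPM as the lowest, median and highest value with vehicle. With corticosterone it had 26.6 CPM in F6, 25.4 in F10, 22.4 in F2, 17.2 in F4 and 18.6 in F8. All treated females thus lay above all vehicle-treated females, which was the case for 3.38% of the genes tested. Its log2 fold change was 0.84 (SE 0.19, adjusted p = 0.00284 by edgeR).

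Anxa1 had 17.7, 27.5 and 41.0 CPM as the lowest, median and highest value in vehicle-treated females, and 111, 71.5, 53.7, 37.6 and 19.9 CPM in treated females F6, F10, F2, F4 and F8. F2, F6 and F10 lay above every vehicle-treated female, F4 lay within their range, and F8 lay in its lower part. Its log2 fold change was 1.07 (SE 0.33), with an edgeR adjusted p of 0.0211. The groups overlapped.

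For Anxa2, which links membranes to actin and forms the plasminogen-binding tetramer, the lowest, median and highest values of vehicle-treated females were 29.5, 53.0 and 70.4 CPM. The treated females F6, F10, F2, F4 and F8 had 149, 120, 86.9, 65.7 and 45.1 CPM. The same 3 mice stood above all controls, and the log2 fold change was 0.85 (SE 0.24, edgeR adjusted p = 0.0133). Anxa5, a calcium-dependent binder of phosphatidylserine that forms lattices on membranes, had 45.2, 55.4 and 79.7 CPM with vehicle. With corticosterone it had 144, 114, 93.4, 72.4 and 49.1 CPM in the same order of mice. Again F2, F6 and F10 were above all controls and F8 was not, and the log2 fold change was 0.70 (SE 0.19, edgeR adjusted p = 0.0109).

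Anxa6, the most abundant annexin per length here and a protein of the repair cap in muscle, had 207, 231 and 260 CPM as the lowest, median and highest value of vehicle-treated females. Its treated females had 293, 231, 271, 223 and 227 CPM, listed in that order again, and 3 of the 5 lay below the vehicle mean. With a log2 fold change of 0.087 (SE 0.083), the groups did not separate.

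Of the S100 members in females, S100a11 had 16.3, 21.1 and 34.4 CPM as the lowest, median and highest value with vehicle. Treated females had 113 CPM in F6, 86.7 in F10, 71.4 in F2, 34.6 in F4 and 22.0 in F8. F4 lay just above the highest vehicle-treated mouse and F8 near their median, so the groups overlapped through 1 mouse. The log2 fold change was 1.44 (SE 0.31, edgeR adjusted p = 0.0018), a 2.71-fold difference.

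S100a10, the partner of Anxa2, had 19.5, 33.9 and 41.4 CPM in vehicle-treated females, and 80.1, 72.7, 60.2, 38.5 and 29.6 CPM in F6, F10, F2, F4 and F8. F4 and F8 lay within the vehicle range, and the log2 fold change was 0.78 (SE 0.22, edgeR adjusted p = 0.0129). S100a6, which is known from proliferating cells and fibroblasts, had 32.7, 53.7 and 60.6 CPM with vehicle and 51.0, 63.8, 44.9, 46.1 and 54.5 CPM with corticosterone, again in that order, a log2 fold change of 0.072 (SE 0.18) that was within that spread.

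Dysf had 53.7, 60.2 and 72.3 CPM in vehicle-treated females and 51.2, 47.4, 63.8, 64.7 and 62.9 CPM in treated females F6, F10, F2, F4 and F8. F6 and F10, which were highest for most annexins, were lowest for Dysf, whose log2 fold change was -0.11 (SE 0.12).

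In all, 2 of the 9 tested members were called in females, both higher, and 13.4% of all genes tested were called (7.4% higher). The median log2 fold change of the 9 members was 0.78, beside 0.035 over all genes tested. The 2 calls depended on single mice: without F6, Anxa4 had a log2 fold change of 0.75 (edgeR adjusted p = 0.0139) and S100a11 1.13 (adjusted p = 0.0115), and without F10, Anxa4 had 0.76 (adjusted p = 0.012). Without F8, 6 members were called, Anxa1, Anxa2, Anxa4, Anxa5, S100a10 and S100a11, where 18.1% of all genes were called. Without F4 or F3, 5 were called, all of these but Anxa1, beside 17.3% and 14.9% of all genes. DESeq2 called the same 6 as the fit without F8, beside 18.8% of all genes.

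Without F2, F6 and F10, 0 members were called in females, and 130 of the 13049 genes tested (0.996%) were called in place of 1748. The log2 fold change then was 0.53 for Anxa4, 0.21 for S100a11, 0.081 for Anxa2, 0.042 for Anxa5, 0.045 for S100a10 and 0.022 for Anxa1. In this fit, 2 members reversed, Anxa6 at -0.068 and Dysf at 0.019.

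**Figure D2:**
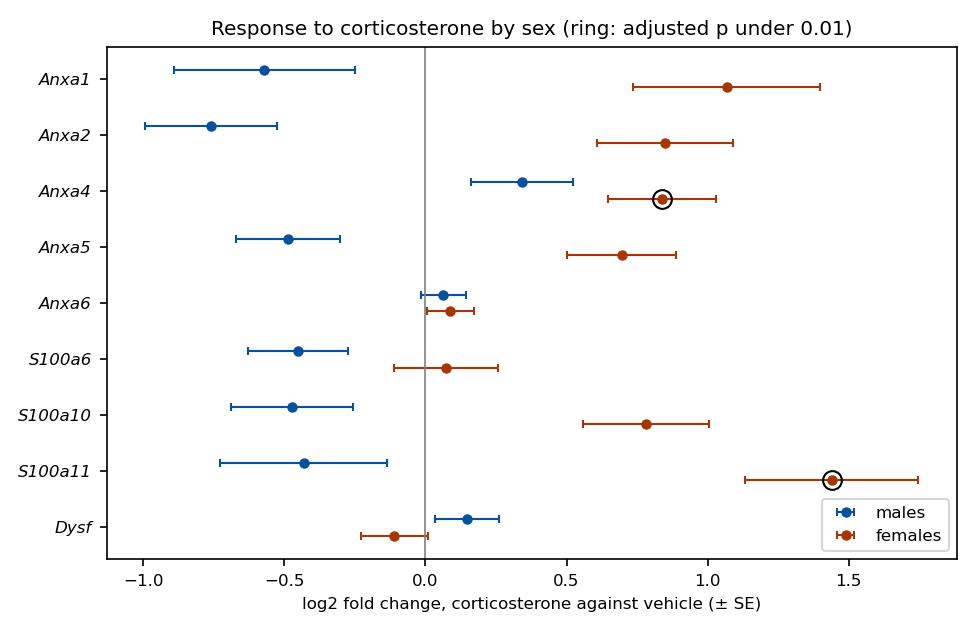
Log2 fold change of corticosterone against vehicle for the 9 tested genes, males in blue and females in red; points are edgeR estimates, bars their SE, and a ring marks an adjusted p under 0.01. The rings are on Anxa4 (0.84) and S100a11 (1.44) of females, and Anxa1, Anxa2, Anxa5, S100a10 and S100a11 lie left of 0 in males and right of 0 in females.

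Males were examined in the same way. Anxa2 had 43.9, 53.2 and 80.8 CPM as the lowest, median and highest value with vehicle, and 24.7, 34.9 and 37.9 CPM with corticosterone. All treated males lay below all vehicle-treated males, as they did for 11.1% of the genes tested. The log2 fold change was -0.76 (SE 0.23), and the edgeR adjusted p of 0.0133 did not pass the threshold.

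S100a10 had 26.0, 28.4 and 41.7 CPM in vehicle-treated males and 16.3, 22.9 and 26.0 CPM in treated males. Its groups did not overlap either, the highest treated male lying just under the lowest control. The log2 fold change was -0.47 (SE 0.22, edgeR adjusted p = 0.0843). Anxa5 went from 47.7, 53.8 and 65.2 CPM with vehicle to 29.4, 39.7 and 48.4 CPM, with only M12 within the vehicle range, at a log2 fold change of -0.49 (SE 0.19, edgeR adjusted p = 0.0405).

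S100a6 had 40.8, 45.6 and 62.2 CPM in vehicle-treated males and 24.7, 31.0 and 57.0 CPM in treated males. M10, the highest treated male, stood apart from the other 5, which were below every control. Its log2 fold change was -0.45 (SE 0.18, edgeR adjusted p = 0.0455), and without M10 it was -0.64 (adjusted p = 0.00269).

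Anxa1 had 14.8, 28.9 and 44.3 CPM with vehicle and 12.5, 20.7 and 26.0 CPM with corticosterone in males, and S100a11 had 19.6, 23 and 37.0 CPM and then 12.1, 19.5 and 22.4 CPM. All 6 treated males lay below the vehicle mean for both genes, but the ranges overlapped, and the log2 fold changes were -0.57 (SE 0.32, edgeR adjusted p = 0.163) and -0.43 (SE 0.30, adjusted p = 0.258). Anxa4 had the opposite sign, from 13.2, 16.1 and 23.8 CPM to 17.6, 19.5 and 30.6 CPM, a log2 fold change of 0.34 (SE 0.18, edgeR adjusted p = 0.138). Anxa6 and Dysf had log2 fold changes of 0.063 (SE 0.080) and 0.15 (SE 0.11).

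Among the 9 members, 0 were called in males by edgeR, where 26.3% of all genes tested were called. DESeq2 called 1 (Anxa2), beside 30.6% of all genes, and limma-voom 2 (Anxa2 and Anxa5), beside 31.6%. The median log2 fold change of the members was -0.45, beside -0.021 over all genes. Anxa2 passed in males when F6, F8 or F9 was left out of the joint fit, with a log2 fold change of -0.76 in each and adjusted p values of 0.00729, 0.00497 and 0.00863, and 26.4% to 27.9% of all genes were called in these fits. Without F2, F6 and F10, 2 members were called in males, Anxa2 (-0.75, adjusted p = 0.00316) and Anxa5 (-0.47, adjusted p = 0.00776), beside 28.3% of all genes in that fit.

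S100a4, a marker of fibroblasts and of some leukocytes, had 0 counts in 9 mice and at most 6 in the other 14, with 33 counts over all mice. Of its 584 exonic bases, 302 are also exonic in Gm42674 on the same strand, a gene with 0 counts in every mouse. A read on shared bases is not assigned to either gene by the counting program, and 309103 to 414149 read pairs per mouse were ambiguous in this way over all genes. The stretches of S100a4 outside Gm42674 measure 36, 86 and 160 bases. A low level of S100a4 and the loss of its reads to the shared exons cannot be told apart, and no difference between groups was detectable.

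The mice of each treated group were then set against the vehicle mean of their sex. In treated males, 1 to 3 of the 9 genes lay above the vehicle mean. Among treated females, 8 genes did in F6 and F2, 7 in F10 and F4, and 3 in F8. The median log2 ratio over the 9 genes ran from -0.91 in M4 to -0.18 in M12 in males, and was 1.29 in F6, 1.04 in F10, 0.74 in F2, 0.31 in F4 and -0.14 in F8. The 5 treated females were thus spread over a wider range than the 6 treated males, with F8 on the male side of 0.

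**Figure D3:**
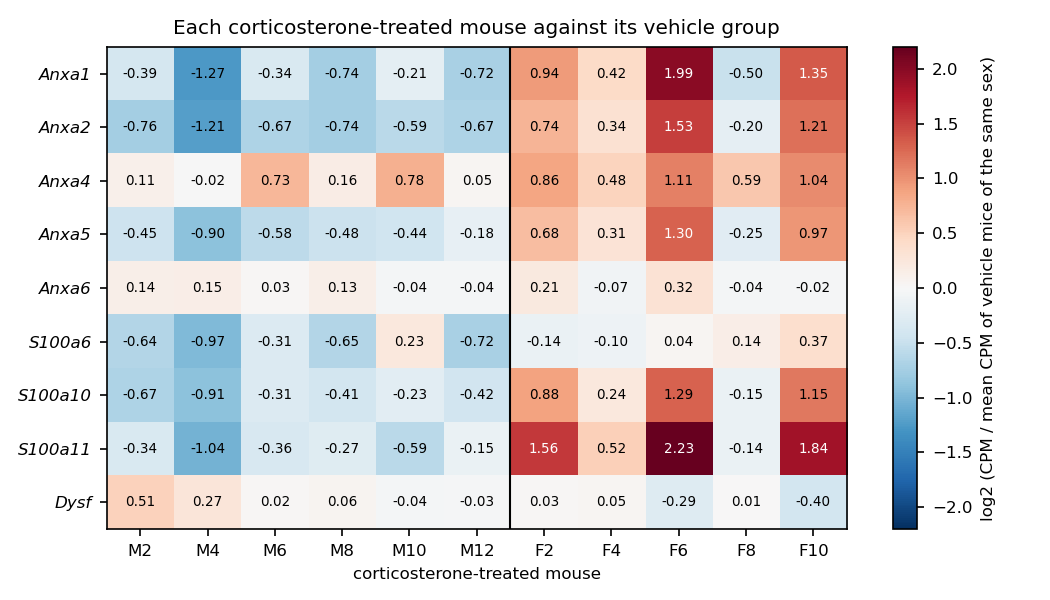
Log2 ratio of each corticosterone-treated mouse (columns) to the mean CPM of the vehicle-treated mice of its sex, for the 9 tested genes (rows); red is above and blue below the vehicle mean. F6 is reddest, with 2.23 for S100a11, M4 is bluest, with -1.27 for Anxa1, and F8 is pale.

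Summed markers of several other cell types also differed among these mice. Summed adipocyte markers reached 1706 CPM in vehicle-treated females, 432 in treated males and 550.3 in vehicle-treated males, beside the 36.66 to 4147 CPM of treated females. All 6 adipocyte markers were detected in treated females, and Lep, the hormone leptin of fat cells, was the 1 of the 6 that passed the test in females (log2 fold change 6.79, SE 1.15, edgeR adjusted p = 0.000284, and 3.71 with an adjusted p of 0.0622 without F2, F6 and F10). Macrophage markers (8, all detected) summed to 142.4 CPM in F8, 233.8 in F4, 246.2 in F2, 344.6 in F6 and 442.6 in F10, beside 112.9 to 243.4 CPM in vehicle-treated females, 108.4 to 166.3 in treated males and 83.15 to 258.5 in vehicle-treated males, and Schwann cell markers (6, all detected) to 90.54 CPM in F8, 96.29 in F4, 191 in F6, 250.1 in F2 and 298 in F10, beside 73.1 to 223, 45.21 to 95.79 and 43.42 to 114 CPM. Hepatocyte markers (6) reached 1029 CPM in F6 and 2281 in F10, but also 2316 in treated male M8 and 1377 in vehicle-treated male M9. The part of these cells in the values of the members was not tested.

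Fibroblast markers, among them the collagen genes Col1a1, Col1a2 and Col3a1, were lower in 6 of 8 in treated males and in 2 of 8 in treated females. Their summed level was 375.3 to 538.8 CPM in treated males against 1040 to 1610 CPM in vehicle-treated males, and 589.4 to 1257 against 938 to 1979 CPM in females. Muscle fibre markers (8) changed in 2 genes in males, Atp2a1 higher and Pvalb lower, and in 1 gene in females, Pvalb lower. Their sum was 99480 CPM in F10, 127400 in F6, 170000 in F8, 173100 in F2 and 203300 in F4. Vehicle-treated females had 148900 to 222200 CPM, so F6 and F10 lay below all of them. Treated males had 163500 to 265800 CPM, highest in M4 and M2, and vehicle-treated males 155500 to 195600 CPM. Regenerating fibre markers (4 of 6 tested) gave 1 call, Myog higher in males, tendon fibroblast markers (5 of 6 tested) gave Scx higher in males, endothelial markers (6) gave Tek lower in males, and the 1 neutrophil marker tested of 6, S100a8, was higher in both sexes. Scx went against its list, whose median log2 fold change in males was -1.69. The median summed level of the tendon fibroblast markers was 103 CPM in vehicle-treated and 37.25 CPM in treated males, with overlapping ranges. Without F2, F6 and F10, 0 of the 4 marker calls in females stood, Lep, Pvalb, Col3a1 and Lum keeping their sign. The 11 marker calls in males all stood. This is no check on them, since the comparison in males holds no female and shares only library scaling and the estimate of spread. No macrophage, Schwann cell or hepatocyte marker passed the test within a sex. The part of these cell types in the members' values was not tested either.

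Sexes were compared within each treatment. Whether male and female libraries were prepared together is not stated, so a batch and the sex cannot be told apart here. With vehicle, 0 of the 9 members were called by edgeR, DESeq2 or limma-voom, beside 0.958% of all genes by edgeR. The lowest adjusted p was that of Anxa4, at 17.8 ± 4.6 CPM in males and 12.3 ± 2.43 CPM in females (SD, n = 6 each). Its log2 fold change of males against females was 0.53 (SE 0.18, edgeR adjusted p = 0.157).

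With corticosterone, 5 of the 9 members were lower in males than in females, where 23.3% of all genes tested were called and 14% were lower. Anxa5 had 39.0 ± 6.17 CPM in treated males (n = 6) and 94.7 ± 36.8 CPM in treated females (n = 5), a log2 fold change of -1.28 (SE 0.19, edgeR adjusted p = 0.000107). Anxa2 and S100a10 differed by -1.48 (SE 0.25) and -1.35 (SE 0.22), both with an adjusted p of 0.000207. For these 3 genes every treated male lay below every treated female, as for 5.55% of all genes. S100a11 differed by -1.83 (SE 0.31, adjusted p = 0.000244) and Anxa1 by -1.53 (SE 0.34, adjusted p = 0.00147), with overlap through F8.

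Dysf was the member with every treated male above every treated female, at 65.9 to 96.2 CPM against 47.4 to 64.7 CPM, as for 6.87% of all genes, with a log2 fold change of 0.37 (SE 0.12, edgeR adjusted p = 0.0188). DESeq2 called it (0.39, adjusted p = 0.00636), and without F2, F6 and F10 it was 0.25 by edgeR (adjusted p = 0.334). S100a6 differed by -0.56 (SE 0.18, adjusted p = 0.0209) and by -0.74 (adjusted p = 0.00174) without M10. The median log2 difference of the 9 members was -1.28, beside -0.029 over all genes. Of the marker lists, 7 of 8 fibroblast, 6 of 8 macrophage, 5 of 6 Schwann cell and 1 of 6 endothelial markers were also lower in treated males than in treated females, and 0 markers were called among muscle fibre, regenerating fibre, tendon fibroblast, neutrophil, adipocyte and hepatocyte genes. Without F2, F6 and F10, 0 of the 5 calls stood, the log2 differences of Anxa1, Anxa2, Anxa5, S100a10 and S100a11 being -0.48, -0.70, -0.62, -0.61 and -0.60, and 206 genes in all (1.58%) were called in place of 3043. Of the 19 markers called between treated sexes, 4 were called in that fit, Col1a1, Col1a2, Col3a1 and Lum, and all 19 kept their sign.

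The difference between the responses of the sexes was tested as an interaction, negative where the response of males was lower. By edgeR, 0 of the 9 members were called, beside 0.69% of all genes. The lowest adjusted p values were those of Anxa2 (-1.61, SE 0.34, adjusted p = 0.011), Anxa5 (-1.18, SE 0.27, adjusted p = 0.0147) and S100a11 (-1.87, SE 0.43, adjusted p = 0.015). S100a10 (-1.25, SE 0.31, adjusted p = 0.0183) and Anxa1 (-1.64, SE 0.46, adjusted p = 0.0285) came next. DESeq2 called these 5 and limma-voom 4 of them, all but Anxa1, beside 6.87% and 5.31% of all genes. The count was 5 without F8, 4 without F4 and 3 without F3, beside 6.84%, 3.05% and 2.31% of all genes. It was 0 without F2, F6 and F10, where Anxa2 stood at -0.83 and 6 genes in all were called. The response of females, the comparison of treated sexes and the interaction share the 5 treated females.

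Within a mouse, the ratio of a partner to its annexin does not depend on how the library is scaled. The threshold for the ratio tests was an adjusted p under 0.05. In males, the S100a10 counts were 0.514 to 0.599 times those of Anxa2 with vehicle (median 0.536) and 0.568 to 0.693 times with corticosterone (median 0.669). The mean log2 ratio went from -0.89 ± 0.083 to -0.62 ± 0.11 (SD, n = 6 each), a difference of 0.27 with all 6 treated males above the vehicle mean (two-sided exact permutation test, p = 0.00433, adjusted over 4 ratio tests p = 0.0173). In females the ratio was 0.584 to 0.683 with vehicle and 0.537, 0.605, 0.692, 0.587 and 0.656 in F6, F10, F2, F4 and F8, and the difference in log2 ratio of -0.044 was within the spread (exact permutation test, p = 0.541). Among treated females the ratio ran from 0.537 to 0.692, while Anxa2 ran from 45.1 to 149 CPM. The SD of the log2 ratio in treated females, 0.143, was the largest of the 4 groups.

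S100a11 counts were 0.743 to 0.967 times those of Anxa1 in vehicle-treated females (median 0.881) and 1.02, 1.21, 1.33, 0.922 and 1.1 times in treated females F6, F10, F2, F4 and F8. All 5 treated females lay above the vehicle mean, F8 among them, and the log2 ratio differed by 0.36 (exact permutation test, p = 0.0173, adjusted p = 0.0346). It passed the ratio threshold of 0.05 but not the 0.01 used for genes. The ratio no longer passed 0.05 in 7 of 11 tests that left out 1 female, with differences of 0.30 to 0.43. The difference was 0.23 without F2, F6 and F10 (exact permutation test, p = 0.286; this design cannot go below 0.0714), and that of S100a10 to Anxa2 was -0.026. In males it differed by 0.097 (exact permutation test, p = 0.63). The smallest p possible was 0.00216 in males and 0.00433 in females.

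Across mice, with the mean of its group taken from each value, log2 CPM of S100a10 and Anxa2 moved together at Pearson's r = 0.972 and Spearman's rho = 0.967 over 23 mice. Both permutation p-values were 1e-05, the smallest that the permutations can give, and 1e-05 and 2e-05 after adjustment over the 2 pairs. The r was 0.951 without F8 and F9, the mice farthest from the median, and 0.941 in the 12 males and 0.98 in the 11 females. For S100a11 and Anxa1 the r was 0.884 and rho 0.831 (permutation p = 1e-05 and 2e-05), with 0.788 without F6 and F8, 0.686 in males and 0.971 in females. These values share library, tissue composition and depth.

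Over the 36 pairs among the 9 members, r ran from -0.712 to 0.972 with a median of 0.48, given as a description. Anxa1, Anxa2, Anxa5, S100a10 and S100a11 formed a block, S100a6 and Anxa4 were closer to each other (0.71), and Anxa6 was near 0 with most. Dysf was negative with all but Anxa6, down to -0.71 with S100a10. Of all genes tested, those nearest to Anxa2 were S100a10 (r = 0.972), Anxa5 (0.922) and S100a11 (0.92), and those nearest to S100a10 were Anxa2, Ywhaq (0.928), which encodes a 14-3-3 protein, and S100a11 (0.918). The genes nearest to Dysf were Rab10 (0.923), a small GTPase of vesicle traffic, Srf (0.896), a transcription factor of muscle and cytoskeletal genes, and 4833439L19Rik (0.887).

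**Figure D4:**
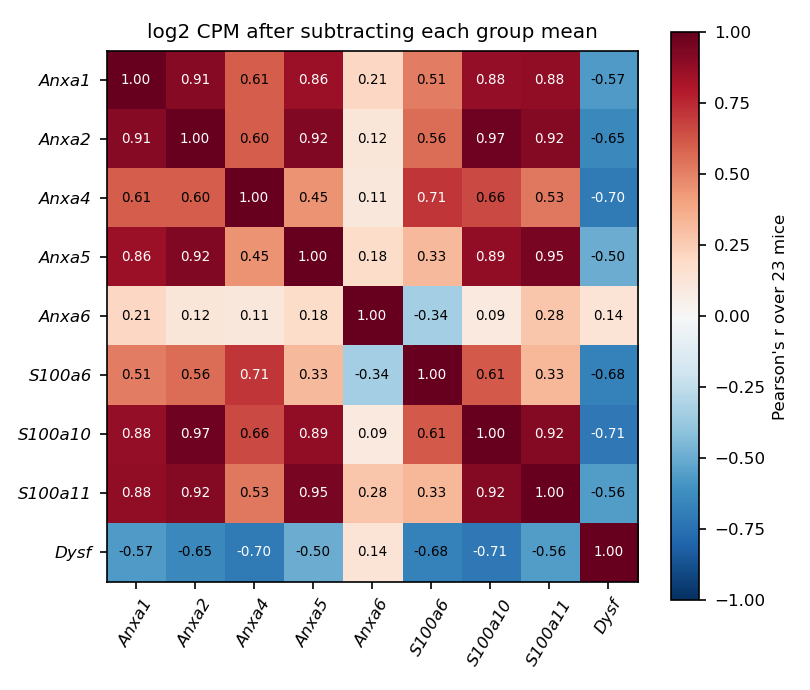
Pearson's r between the 9 tested genes over 23 mice, on log2 CPM after the mean of each group was subtracted; red is positive and blue negative. A red block joins Anxa1, Anxa2, Anxa5, S100a10 and S100a11, with 0.97 between Anxa2 and S100a10, and the Dysf row is blue except for Anxa6.

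The summed markers were set against the members in the same way. Dysf had an r of 0.83 with the muscle fibre sum, and the other members had -0.73 (S100a10) to -0.57 (Anxa4) except Anxa6 at 0.23. With the macrophage sum, Anxa1 had an r of 0.85 and Anxa2 and S100a10 0.76, and Dysf had -0.56. With the adipocyte sum, S100a11 had 0.77, Anxa1 0.69 and Anxa5 0.67, beside -0.045 for S100a6. The r ran from -0.43 (Dysf) to 0.68 (Anxa2) with the fibroblast sum and from -0.28 (Dysf) to 0.61 (S100a11) with the Schwann cell sum. With the hepatocyte sum it ran from -0.37 (Anxa4) to 0.18 (Anxa5). With the regenerating fibre sum the range was -0.53 (Anxa1) to 0.27 (Dysf), with Anxa5 at -0.52 and S100a11 at -0.51. It was -0.53 (Anxa6) to 0.38 (Anxa2) with the endothelial sum and -0.48 (Anxa6) to 0.41 (S100a6) with the tendon fibroblast sum. For the neutrophil sum it was -0.43 (Dysf) to 0.25 (S100a6). These are descriptions over 23 mice. Treated females had the largest SD for Anxa1, 34.9 CPM against 4.96 to 10.9 CPM in the other groups. No r of markers, nearest genes or member pairs was computed without F2, F6 and F10.

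Other annexins were measured in 4 of 7 genes. Anxa11, which also binds RNA granules, rose in both sexes, from 71.5 ± 2.80 to 111 ± 5.97 CPM in males (SD, n = 6 each) at a log2 fold change of 0.64 (SE 0.086, edgeR adjusted p = 7.26e-06), and in females, from 57.6 ± 8.47 (n = 6) to 81.2 ± 9.91 CPM (n = 5), at 0.49 (SE 0.089, adjusted p = 0.000493). Anxa3 fell in males (log2 fold change -0.78, SE 0.19, adjusted p = 0.00253). Between treated sexes, Anxa7 (0.80) and Anxa11 (0.45) were higher in males, with no overlap of mice, as for 6.87% of all genes. Anxa7 did not overlap with vehicle either, at 67.64 to 99.6 CPM in males and 42.16 to 63.36 CPM in females, without being called by edgeR. Anxa11 stayed called in females without F2, F6 and F10 (0.64, adjusted p = 0.00174) and Anxa7 between treated sexes (1.16, adjusted p = 0.00299), and Anxa11 between treated sexes did not (0.31, adjusted p = 0.083). In that fit, Anxa7 was also called higher in males between vehicle-treated sexes (0.67, edgeR adjusted p = 0.00648). The other genes of this list passed no comparison or were below the filter.

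Of the other S100 genes, 5 of 12 were tested. S100a8, a subunit of calprotectin made by neutrophils, rose from 0.248 ± 0.097 to 1.16 ± 0.997 CPM in males (n = 6 each) at a log2 fold change of 2.22 (SE 0.60, edgeR adjusted p = 0.00531) and from 0.123 ± 0.091 to 0.948 ± 0.81 CPM in females at 2.91 (SE 0.68, adjusted p = 0.00367). Its level stayed low in every group, and without F2, F6 and F10 the female value was 2.74 (adjusted p = 0.0564). S100a16 fell in males without overlap, as for 11.1% of all genes, from 48.1 ± 4.28 to 36.3 ± 2.87 CPM (log2 fold change -0.41, SE 0.069, adjusted p = 9.6e-05). S100b, a marker of Schwann cells, was lower in treated males than in treated females (-1.58, SE 0.39, adjusted p = 0.00336), and by -0.52 (adjusted p = 0.508) without those 3 females.

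Partners of membrane repair were tested in 15 of 16 genes. Capn2, the protease calpain-2, rose in both sexes, at log2 fold changes of 0.75 (SE 0.11, edgeR adjusted p = 1.56e-05) in males and 0.79 (SE 0.11, adjusted p = 5.56e-05) in females. Its mice did not overlap in either sex, as for 10.8% of all genes in males and 3.38% in females. Ahnak, a large scaffold that binds the Anxa2 and S100a10 complex and dysferlin, rose at 0.59 in males (SE 0.13, adjusted p = 0.000816) and 0.64 in females (SE 0.13, adjusted p = 0.00121). Vps4a, an ATPase of the ESCRT machinery, rose in males (0.44, adjusted p = 0.000166), and Capn1 (-0.42, adjusted p = 0.00927) and Bin1 (-0.60, adjusted p = 0.0042), a protein of the transverse tubules, fell in females. The list thus had 3 genes higher and 0 lower in males, and 2 higher and 2 lower in females, with a median log2 fold change of -0.079 and 0.069. Over all genes tested, 26.3% were called in males and 13.4% in females. None of the 4 female calls stood without F2, F6 and F10: the values were 0.35 for Capn2 (adjusted p = 0.0319), 0.29 for Ahnak, -0.30 for Capn1 and -0.34 for Bin1.

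Between treated sexes, 7 of the 15 repair partners were called, 4 higher and 3 lower in males, beside 23.3% of all genes. Cav3 (0.68), Vps4a (0.55), Capn1 (0.47) and Chmp4b (0.37) were higher, and Ehd2 (-1.46), Myof (-1.01) and Cavin1 (-0.65) were lower. Myof encodes myoferlin, a relative of dysferlin. None of the 7 was called without F2, F6 and F10, with values of 0.45 for Cav3, 0.51 for Vps4a, 0.36 for Capn1, 0.31 for Chmp4b, -0.46 for Ehd2, -0.61 for Myof and -0.17 for Cavin1. Of the receptors and plasmin genes, 4 of 8 were tested and Plat, the tissue plasminogen activator, was called: it fell in males from 7.71 ± 2.19 to 2.50 ± 0.48 CPM (log2 fold change -1.62, SE 0.25, adjusted p = 3.55e-05) and was lower in treated males than in treated females (-1.27, SE 0.26, adjusted p = 0.000939; -1.24 with an adjusted p of 0.0305 without F2, F6 and F10). The receptors Fpr1, Fpr2, Fpr3 and Ager were below the filter, Fpr3 with 0 counts in every mouse. No gene of these 4 lists passed the interaction test by edgeR.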

How the data were processed

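RNA of the quadriceps of 23 mice was sequenced as stranded mRNA libraries. The authors ran the BioWDL RNA-seq pipeline, aligning reads to mm10 with STAR 2.7.3a, and counted read pairs per gene and strand with HTSeq 0.12.4 and Ensembl release 97. They deposited raw counts, with no normalization. The HTSeq summary rows (10.73% to 15.34% of read pairs per mouse) were left out. GENCODE M21 gave gene names and positions for 55480 of 55573 IDs.

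Tests used the deposited counts and edgeR 4.0.16 (TMM, quasi-likelihood test, 1 mean per group, Benjamini-Hochberg), limma 3.58.1 and DESeq2 1.42.0 in R 4.3.3. A gene was tested where 4 or more mice of any group exceeded 20 normalized counts, 13049 in all, at an adjusted p of 0.01. SE is the size of the log2 fold change over the root of F. CPM used TMM library sizes and log2 CPM a prior count of 1, and RPKM was computed from CPM and the union of exons. Alternatives were DESeq2, limma-voom, the median of ratios, other filters, each sex alone, a limit on fold change, a replicate block and leaving out each mouse. Leaving out F2, F6 and F10 together was chosen after seeing the data. The tests were run on simulated data first.

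The members and gene lists were chosen with earlier results of these data known. Genes named are the members, the genes of the 4 lists of relatives and partners that passed, the 3 genes nearest to Anxa2, S100a10 and Dysf by r, and examples of the markers. Receptors below the filter and Gm42674, which overlaps S100a4, were named after their values were seen. Markers of 10 cell types (muscle fibre, regenerating fibre, fibroblast, tendon fibroblast, macrophage, neutrophil, endothelial cell, adipocyte, Schwann cell and hepatocyte) were listed. No pair of replicates was alike within sampling noise (lowest chi-square per degree of freedom 15). Muscle function and qPCR of other cohorts were not analysed here.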

Additional observations from a re-analysis of the deposited data

Results flagged for a closer look

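Anxa2 in corticosterone-treated male M4 was 24.65 CPM, far below the other 5 treated males at 33.69 to 37.91 CPM. S100a11 in vehicle-treated male M3 was 36.96 CPM, far above the other 5 at 19.56 to 25.26 CPM. A single value so far from its group arises by chance in about 1 of 20 groups, and 36 groups of member levels were examined. Read pairs of low alignment quality, which enter no comparison, numbered 3496 in F2, 4618 in F6 and 4015 in F10, above the 1219 to 1642 of the vehicle-treated mice.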

How the results depend on the processing

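For the 9 tested genes in 5 comparisons, 45 log2 fold changes were refitted 1350 times, of which 1259 kept direction and side of the threshold, 53 gained a call, 11 lost one and 27 reversed. Members called in males numbered 1 with DESeq2 (beside 30.6% of all genes), 2 with limma-voom (31.6%), 2 with each sex alone (27.8%) and 2 without F2, F6 and F10 (28.3%). In females they numbered 6 with DESeq2 (beside 18.8% of all genes), 5 with limma-voom (18.8%) and 1 with each sex alone (4.3%), where S100a11 was lost (adjusted p = 0.0286 by edgeR). They numbered 1 with an added limit of 1 on log2 fold change (5.61%) and 0 without F2, F6 and F10 (0.996%). Between treated sexes there were 0 without those 3 mice (beside 1.58% of all genes), and for the interaction 5 with DESeq2 (6.87%), 4 with limma-voom (5.31%) and 1 with the median of ratios (0.989%). The cause of these shifts was not tested. Leaving out 1 mouse gave 0 to 1 calls in males, 0 to 6 in females, 5 to 6 between treated sexes, 0 to 0 between vehicle-treated sexes and 0 to 5 for the interaction. The share of all genes called in these fits was 22.1% to 27.9% in males, 7.69% to 18.1% in females and 14.4% to 28.7% between treated sexes. It was 0.759% to 1.06% between vehicle-treated sexes and 0.00766% to 6.84% for the interaction. The female difference in log2 ratio of S100a11 to Anxa1 ran from 0.30 to 0.43 and no longer passed the ratio threshold of 0.05 in 7 of 11 such tests. That of S100a10 to Anxa2 ran from -0.0877 to 0.00425, and they were 0.23 and -0.026 without F2, F6 and F10. In males these differences ran from -0.00383 to 0.22 and from 0.25 to 0.31.

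Values that reversed were small. Anxa6 changed sign for the interaction with no filter (0.026) and without F2, F6 and F10 (0.15), for treated sexes with limma-voom (-0.017), and for females without those 3 mice (-0.068), as did Dysf (0.019). Over fits that left out 1 mouse, the log2 fold change ran from -0.038 to 0.24 for Anxa1, -0.16 to 0.0074 for Anxa5, -0.12 to 0.036 for S100a6 and -0.11 to 0.16 for S100a11 between vehicle-treated sexes, from -0.077 to 0.13 for Anxa4 and -0.0083 to 0.12 for Anxa6 between treated sexes, from -0.061 to 0.058 for Anxa6 in the interaction and from -0.034 to 0.14 for S100a6 in females. Replicate numbers are shared between the sexes only, and mice of the same number were compared over 11 pairs. Their deviations from the group mean had an r of 0.0846 to 0.477 in vehicle-treated pairs, all positive, and of -0.377 to 0.242 in treated pairs. No pairing is stated, so the main fit did not take them as pairs. With the replicate block, members called between treated sexes numbered 6, beside 17.3% of all genes, Dysf being gained (log2 fold change 0.40, adjusted p = 0.00569 by edgeR). They numbered 0 between vehicle-treated sexes (1.05%) and for the interaction (0.743%). Dysf between treated sexes was also called by DESeq2. Counts were too few to test S100a4, and the 5 treated females limit the other members.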
